A study of Zea mays with 21 samples.

Results

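Alpha zeins are the main storage proteins of the maize kernel, and their transcripts were followed here in endosperm and leaf of a zebra-leaf mutant. A list of 10 gene IDs described as 22 kDa and 19 kDa alpha zein genes was looked up in a table of 50142 IDs, and 9 were found. The table lists them as gene:Zm00001d048808, gene:Zm00001d048809, gene:Zm00001d048812, gene:Zm00001d048813, gene:Zm00001d019155, gene:Zm00001d019156, gene:Zm00001d019160, gene:Zm00001d030855 and gene:Zm00001d049243. The remaining ID, Zm00001d019158, was not analysed here. The IDs were listed as alpha zein genes with earlier results of these data known, and which of them belong to which size class was not checked, because 0 IDs of the count table matched the reference table used here.

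RNA was sequenced from zb10 and WT maize in 21 libraries that form 7 groups of 3. The series describes zb10 as a loss-of-function mutant of ZmPTOX, the plastid terminal oxidase, with zebra-striped leaves and white kernels, and calls the replicates biological. Which allele was used, and in which genetic background, is not known here. The columns of the count table call the mutant zb9, and were taken as zb10 because no other mutant is labelled. The groups were zb10 and WT endosperm at 16 days after pollination, zb10 and WT leaf at the V9 stage, and 3 groups at the V4 stage: white sections of zb10 leaves, green sections of zb10 leaves, and WT leaf.

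Alpha zeins are prolamins. They are made on the endoplasmic reticulum of starchy endosperm cells and fill the inside of protein bodies, around which beta and gamma zeins form the outer layer. Their genes form families of tandem copies that can be nearly identical in sequence, and the transcription factors Opaque2 and prolamin-box binding factor are known to activate zein genes during grain filling. Whether reads shared by such copies were split or dropped is not given in the sources used here, so the value of each single ID is uncertain to that extent.

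Endosperm libraries held 28531699 to 42931635 counts and leaf libraries 28237880 to 53092962, apart from WT V9 replicate 1 with 123050963. The 100 most abundant leaf-enriched transcripts were used as a measure of leaf RNA. They summed to 711, 623 and 625 CPM (counts scaled to library size) in zb10 endosperm, against 809, 590 and 785 CPM in WT endosperm. In each V9 leaf library the sum was at least 192378 CPM. These transcripts were chosen as at least 16-fold higher in V9 leaf than in endosperm of these same libraries. The gap to leaf is therefore in part fixed by that choice. Leaf RNA and expression of these genes in endosperm itself cannot be told apart by the sum. The mutated gene is not paired with an ID in the files. Zm00001d001909, taken as a candidate for it, had 5.47 to 8.54 CPM in zb10 endosperm, with 5.47 in replicate 2, against 13.1 to 16.1 CPM in WT endosperm, and by this gene all 6 libraries stood with their labelled genotype. One endosperm library went against the others of its genotype for Zm00001d042453, which had 3979 to 9837 counts in every zb10 leaf library: zb10 endosperm had 19597, 0 and 10001 counts in replicates 1, 2 and 3, against 4, 6 and 0 in WT endosperm. Results for endosperm are therefore also given without zb10 replicate 2.

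The 9 genes were transcripts of endosperm. Together they held 9.53%, 10.1% and 11.4% of all counts in the zb10 endosperm libraries, against 6.24%, 10.7% and 9.50% in those of WT. The mean share was 10.3 ± 0.970% in zb10 and 8.82 ± 2.32% in WT (SD, n = 3 each). The 2 ranges overlapped, and WT replicate 1 had the lowest share of the 6 libraries. Counting error was small beside these differences: the widest 95% Wilson interval, that of zb10 replicate 3, ran from 11.40% to 11.42%. It is computed from the counts of 1 library, so it covers counting error only. The reads carry no molecular identifiers, so copies of 1 molecule cannot be told apart. In such bulk samples, fewer cells of a type and less RNA per cell cannot be told apart.

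At V4 none of the 9 genes had a single count in any library. The 3 libraries of the white zb10 section, the 3 of the green section and the 3 of WT leaf held 0 alpha zein counts among 303483577. A floor of 3 counts over each group puts the summed share in zb10 endosperm at least 3263472-fold higher than in the white section and at least 3468294-fold higher than in the green section. In WT, endosperm was at least 3179694-fold higher than V4 leaf. No member could therefore be tested between the genotypes at V4.

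V9 leaf differed from V4 leaf in that all 9 genes had counts there, at trace level. The 6 V9 libraries held 1185 alpha zein counts among 333162144. Their sum was 2.75, 1.04 and 6.29 CPM in zb10 V9 leaf, against 3.46, 7.30 and 2.09 CPM in WT V9 leaf, with overlapping ranges. For Zm00001d049243, the ID with the most counts, the zb10 libraries had 43, 18 and 58 counts and the WT libraries 101, 58 and 27. Zm00001d019160 had 0 counts in each zb10 library and 2, 0 and 0 in WT.

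**Figure D1:**
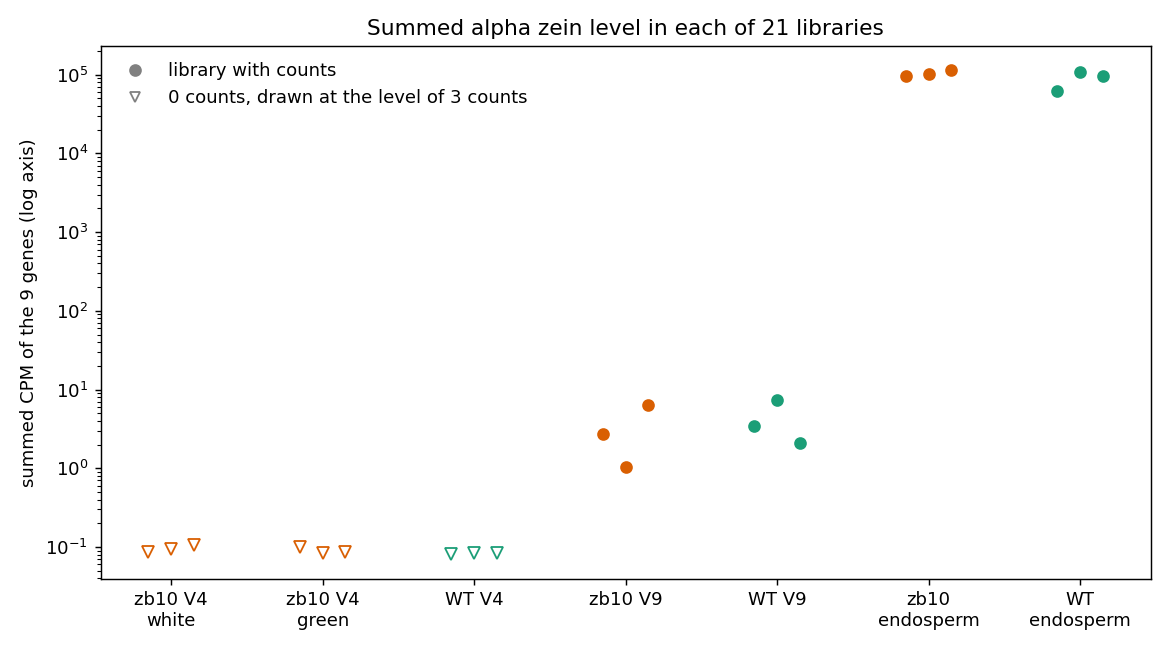
Summed CPM of the 9 alpha zein genes (log axis) in each of the 21 libraries, by leaf stage and then endosperm, with zb10 in orange and WT in green; open triangles mark libraries with 0 counts, drawn at the level of 3 counts. The 9 V4 libraries held none, the 6 V9 libraries stood between 1.04 and 7.30 CPM, and the 6 endosperm libraries stood between 62384 and 114119 CPM.

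Between tissues, all 9 genes were higher in endosperm than in V9 leaf of the same genotype. The summed level was 103394 ± 9695 CPM in zb10 endosperm, against 3.36 ± 2.68 CPM in zb10 V9 leaf (SD, n = 3 each), a ratio of 30759. In WT it was 88194 ± 23175 CPM in endosperm and 4.28 ± 2.70 CPM in V9 leaf, a ratio of 20587. Both ratios rest on single leaf libraries: the zb10 ratio was 54494 without zb10 V9 replicate 3 (6.29 CPM), and the WT ratio was 31750 without WT V9 replicate 2 (7.30 CPM), so the 2 genotypes could not be put in order by them. With edgeR's quasi-likelihood test and Benjamini-Hochberg adjustment over all genes, the members passed at adjusted p of 3.1e-07 to 7.8e-05 in zb10 and of 5.9e-07 to 1.8e-05 in WT. As background, 36.4% of 28308 genes tested were called higher in zb10 endosperm and 37.5% of 28157 in WT endosperm. The members were listed as storage protein genes with earlier results of these data known, so this outcome was largely fixed in advance. These p-values are therefore no separate support for it. Zm00001d048808, Zm00001d019160 and Zm00001d030855 did not pass the filter on low counts between the V9 groups, and entered these tests through their endosperm counts. The ends of both ranges of adjusted p above belong to these IDs. For the other members the edgeR adjusted p ran from 1.5e-06 to 2.4e-05 in zb10 and from 4.3e-06 to 1.5e-05 in WT. The median log2 fold change of the members was 15.31 in zb10 and 14.73 in WT, where the medians over all genes were -0.05 and -0.02. The fitted values of Zm00001d048808 and Zm00001d019160 rest on at most 2 leaf counts in any library and depend on the prior count of the fit. With a floor of 3 counts over the group, Zm00001d019160 was at least 9659-fold higher in zb10 endosperm than in zb10 V9 leaf, and with it at that bound the median in zb10 was 15.23.

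The main comparison was zb10 against WT within endosperm. None of the 9 genes passed the threshold of adjusted p under 0.05 in edgeR's quasi-likelihood test, where 0.0355% of the 25366 genes tested passed. DESeq2 called 0 of the 9 as well, where it called 115 of the 30347 genes it gave an adjusted p. At an unadjusted p under 0.05 there was 1 member, Zm00001d048808, against 5.80% of all genes. Of the 9 genes, 7 had a positive and 2 a negative log2 fold change, where 50.8% of all genes were positive. The median was 0.23, against 0.00413 over all genes. Without WT replicate 1 the median was -0.02, with 4 positive and 5 negative. Without WT replicate 2 it was 0.47, with 8 positive and 1 negative. Without zb10 replicate 2 it was 0.26, and all 9 were positive.

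Among the 4 IDs from Zm00001d048808 to Zm00001d048813, which are close in number, Zm00001d048808 was the one whose groups did not overlap. It had 398, 413 and 395 CPM in zb10 endosperm, against 261, 367 and 319 CPM in WT endosperm (CPM here scaled by TMM, a trimmed mean of ratios between libraries). Every zb10 library stood above every WT library, as was the case in either direction for 11.2% of all genes tested. The log2 fold change was 0.35 (SE 0.12), which is 1.27-fold with a 95% interval of 1.05 to 1.55, and the adjusted p from edgeR was 0.79. Without WT replicate 1 the log2 fold change was 0.23, without WT replicate 2 it was 0.47, and without zb10 replicate 2 it was 0.33. Nearby IDs that are no members, Zm00001d048807, Zm00001d048810 and Zm00001d048818, also had every zb10 library above every WT library. The groups of Zm00001d048802, Zm00001d048806, Zm00001d048816 and Zm00001d048817 overlapped. Zm00001d048810 had 289, 308 and 283 CPM in zb10 against 188, 226 and 261 CPM in WT (log2 fold change 0.38, edgeR adjusted p = 0.74).

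Zm00001d048809 was nearly constant among the mutant libraries. Its level was 13763, 13999 and 14243 CPM in zb10, against 8935, 17665 and 12603 CPM in WT. The 3 zb10 values lay inside the WT range, with a coefficient of variation of 1.71% in zb10 and 33.5% in WT. The log2 fold change was 0.10 (SE 0.23; edgeR adjusted p = 0.97), with a 95% interval of the fold from 0.749 to 1.53. It was -0.11 without WT replicate 1 and 0.38 without WT replicate 2.

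Zm00001d048812 had 8838, 8973 and 10406 CPM in zb10 and 3622, 9514 and 7324 CPM in WT. WT replicate 1 was by far the lowest library, and WT replicate 2 stood above 2 of the 3 zb10 libraries. Its log2 fold change of 0.46 (SE 0.30; edgeR adjusted p = 0.91) was the highest of the 9 members; it was 0.16 without WT replicate 1 and 0.78 without WT replicate 2. Zm00001d048813 followed the same order of libraries within WT, at 9339, 9514 and 10821 CPM in zb10 against 5259, 11525 and 8487 CPM in WT. Its log2 fold change was 0.23 (SE 0.25; edgeR adjusted p = 0.94) with all libraries, -0.02 without WT replicate 1 and 0.52 without WT replicate 2.

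The 3 IDs from Zm00001d019155 to Zm00001d019160 varied more among the zb10 libraries: zb10 replicate 3 stood 1.44-fold to 4.05-fold above zb10 replicate 1, against 0.990-fold to 1.18-fold for the 4 IDs above. Zm00001d019155 stood at 14667, 15986 and 23462 CPM in zb10 and at 15775, 19389 and 19505 CPM in WT. Its mean was 18038 ± 4743 CPM in zb10 and 18223 ± 2121 CPM in WT (SD, n = 3 each). The log2 fold change was -0.01 (SE 0.20; edgeR adjusted p = 0.995), and the 95% interval of the fold, 0.721 to 1.36, leaves room for changes of that size in either direction.

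Zm00001d019156 had 12126, 11807 and 17486 CPM in zb10, against 9880, 14252 and 15423 CPM in WT, and the groups overlapped (log2 fold change 0.07, SE 0.22, edgeR adjusted p = 0.98). Zm00001d019160 was a far smaller share of the family and the most variable in the mutant: it had 98.4, 158 and 399 CPM in zb10, against 224, 249 and 217 CPM in WT. The zb10 values enclosed those of WT, with 1 library 4.05-fold above another of the same genotype. The log2 fold change was -0.07 (SE 0.42; edgeR adjusted p = 0.99), and it was -0.84 without zb10 replicate 3 and 0.27 without zb10 replicate 1.

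The 2 IDs outside these runs had higher means in zb10. Zm00001d049243 was at 29269, 31757 and 35056 CPM in zb10 endosperm, against 15185, 32102 and 24341 CPM in WT endosperm. WT replicate 2 lay within the zb10 range and the other WT libraries below it. The log2 fold change was 0.42 (SE 0.25; edgeR adjusted p = 0.89), 1.34-fold with a 95% interval of 0.899 to 2.002, and it was 0.18 without WT replicate 1 and 0.70 without WT replicate 2.

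Zm00001d030855 differed most between libraries, 4.95-fold from the lowest to the highest. It had 5370, 5072 and 8139 CPM in zb10 and 1643, 6826 and 5197 CPM in WT. WT replicate 1 was again lowest. The log2 fold change was 0.44 (SE 0.44; edgeR adjusted p = 0.94) with all libraries, 0.04 without WT replicate 1 and 0.86 without WT replicate 2.

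**Figure D2:**
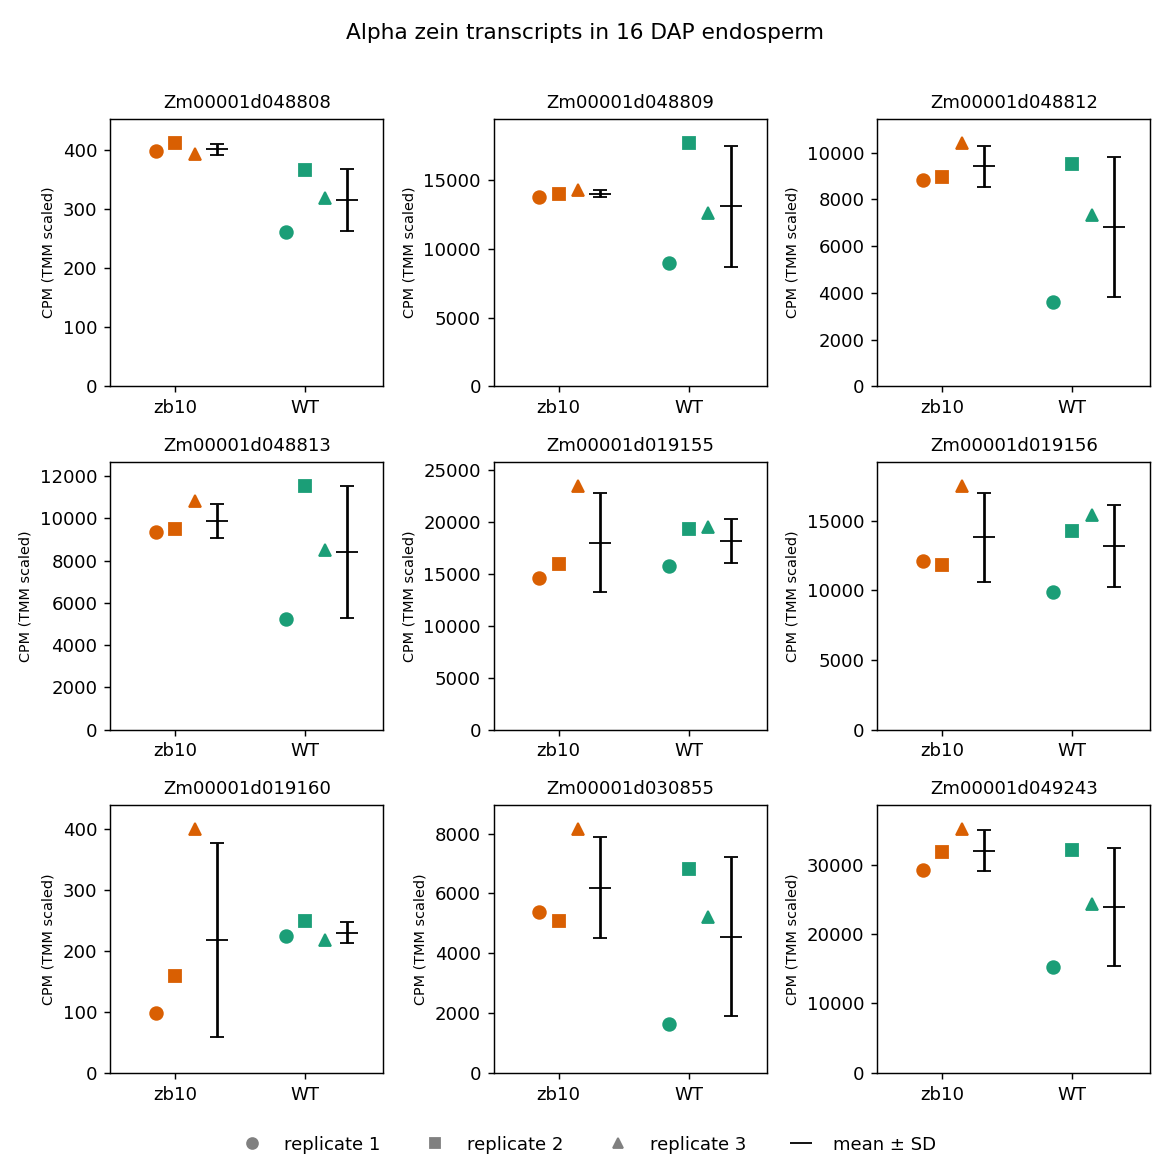
TMM-scaled CPM of each of the 9 genes in the 3 zb10 and 3 WT endosperm libraries, with replicates as symbols and the mean ± SD in black; each panel has its own axis, which starts at 0. WT replicate 1 was the lowest of the 6 libraries for 7 of the 9 genes, and zb10 replicate 3 was the highest for 6 of them.

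WT replicate 1 was thus the library in which most of these genes were low. It was the lowest of 6 for 7 of the 9 genes and for 17.4% of all genes tested. The exceptions were Zm00001d019155 and Zm00001d019160, which were lowest in zb10 replicate 1. Relative to WT replicate 1, WT replicate 2 was 1.11-fold to 4.15-fold higher over the 9 genes. The median coefficient of variation of the members was 9.24% in zb10 and 33.5% in WT, where the medians over all genes were 16.8% and 15.2%. That library also had the highest leaf RNA measure of the 6, 809 CPM. WT replicate 3 was close to it at 785 CPM, with a family share of 9.50% against 6.24% in WT replicate 1. With the leaf RNA measure as a covariate in the edgeR fit, 5 members were positive and 4 negative. The lowest edgeR adjusted p in that fit was 0.99. The part of leaf RNA in these differences was not tested beyond that fit.

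**Figure D3:**
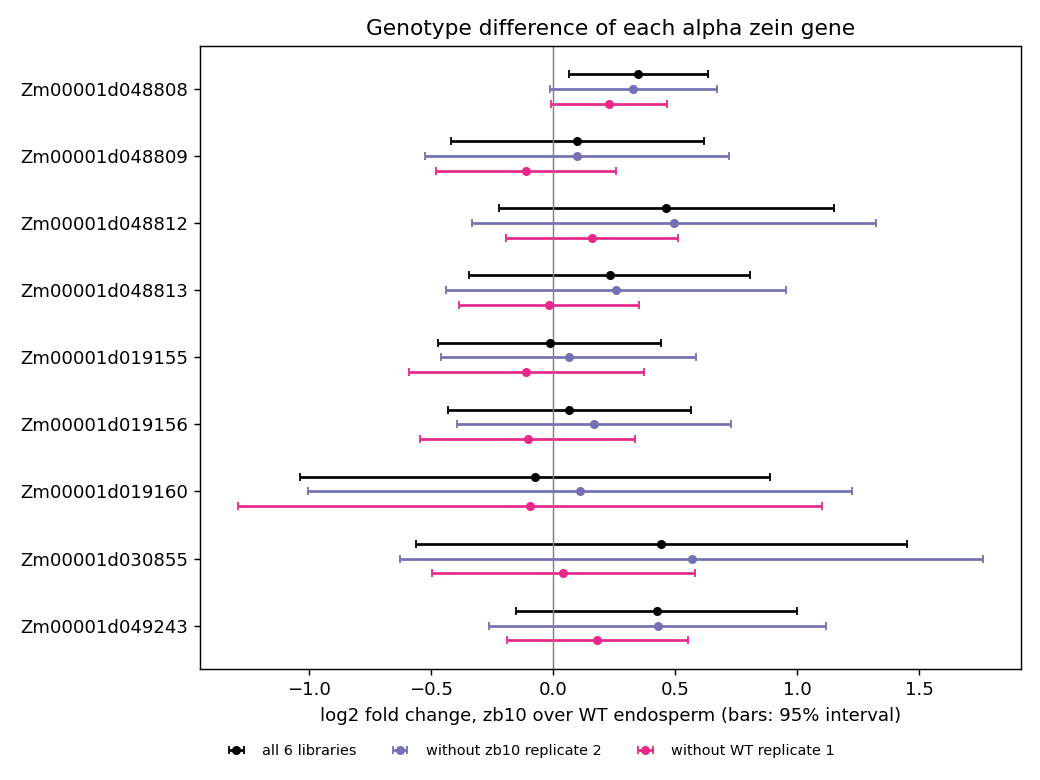
Log2 fold change of zb10 over WT endosperm for each gene, with 95% intervals from edgeR's quasi-likelihood test, using all 6 libraries (black), without zb10 replicate 2 (purple) and without WT replicate 1 (pink). With all libraries the values ran from -0.07 to 0.46; without WT replicate 1 they moved down for each gene.

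The split of the family's counts among its members does not depend on library size or scaling. It is not corrected for transcript length, so it gives no order of transcript levels. Zm00001d049243 took the most counts, at 31.2%, 32.5% and 29.1% of the family in zb10 and 25.0%, 28.7% and 26.1% in WT. These ranges did not overlap, and the mean share was 30.9 ± 1.71% in zb10 and 26.6 ± 1.91% in WT (SD, n = 3 each). The share of Zm00001d048812 also did not overlap, at 9.42%, 9.19% and 8.64% in zb10 against 5.96%, 8.503% and 7.84% in WT. Shares of a whole move together, and no test was run on them. By CPM, the 2 genotypes did not overlap, in either direction, for 11.2% of all genes tested. No such background was made for shares, so these gaps are given as values only.

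Zm00001d019155 ran the other way in its mean, with 17.2 ± 2.05% in zb10 and 21.4 ± 4.33% in WT (SD, n = 3 each), and its ranges overlapped. It took 26.0% in WT replicate 1, the highest of any library. Zm00001d030855 took 2.70% there, against 5.19% to 6.76% in the other 5 libraries. The counts of the 4 IDs from Zm00001d048808 to Zm00001d048813, divided by those of the 3 IDs from Zm00001d019155 to Zm00001d019160, gave ratios of 1.20, 1.18 and 0.867 in zb10 and 0.699, 1.15 and 0.818 in WT. In both genotypes, then, this ratio was above 1 in some libraries and below 1 in others.

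**Figure D4:**
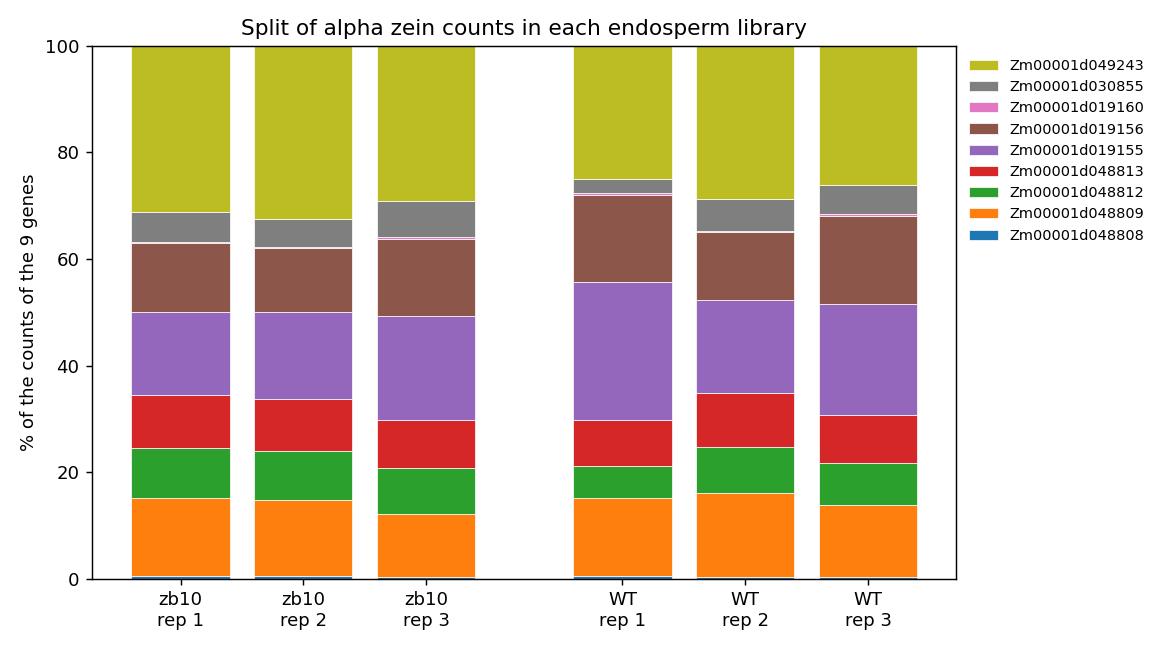
Stacked bars give the percent of the summed counts of the 9 genes that each gene took in every endosperm library, zb10 on the left and WT on the right. Zm00001d049243 took 25.0% to 32.5%, and Zm00001d048808 and Zm00001d019160 each took under 1% in every library, at most 0.430% and 0.368%.

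The split of the V9 leaf counts differed between libraries, which held 46 to 426 counts each. Of 54 shares, those of 9 genes in 6 libraries, 13 lay within the range of the endosperm libraries. Each endosperm library held at least 2246307 family counts, and some ranges were narrow, as 0.328% to 0.430% for Zm00001d048808. With so few V9 counts, many shares would fall outside such ranges by counting error alone. This number therefore does not tell whether the split differs between leaf and endosperm. Zm00001d019156 took 21.2%, 2.17% and 23.6% in zb10 V9 leaf, against 9.86%, 17.7% and 21.6% in WT V9 leaf and 12.1% to 16.5% in endosperm. Zm00001d030855 took 6.85%, 4.35% and 4.13% in zb10 V9 leaf, against 8.92%, 1.27% and 0% in WT V9 leaf and 2.70% to 6.76% in endosperm. Summed over the 6 V9 libraries, Zm00001d049243 took 25.7% of the 1185 counts (95% Wilson interval 23.3% to 28.3%) and Zm00001d019155 took 23.0% (20.7% to 25.5%). Both of these summed shares lay within the range of the 6 endosperm libraries, as did those of all other members except Zm00001d048813, which took 7.26% (5.91% to 8.88%) against 8.65% to 10.3% in endosperm. These intervals cover counting error only, not the spread between libraries. In single V9 libraries the share of Zm00001d048813 ran from 4.35% to 9.39%. The mean CPM of a member in V9 leaf was 0.00122% to 0.00518% of its mean CPM in endosperm, with a median of 0.00351%. Of the 100 most abundant other endosperm transcripts, 26 had 0 counts in every V4 library; 25 of these had counts at V9, with a median of 0.00480% on the same measure. The source of the V9 counts was not tested.

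**Figure D5:**
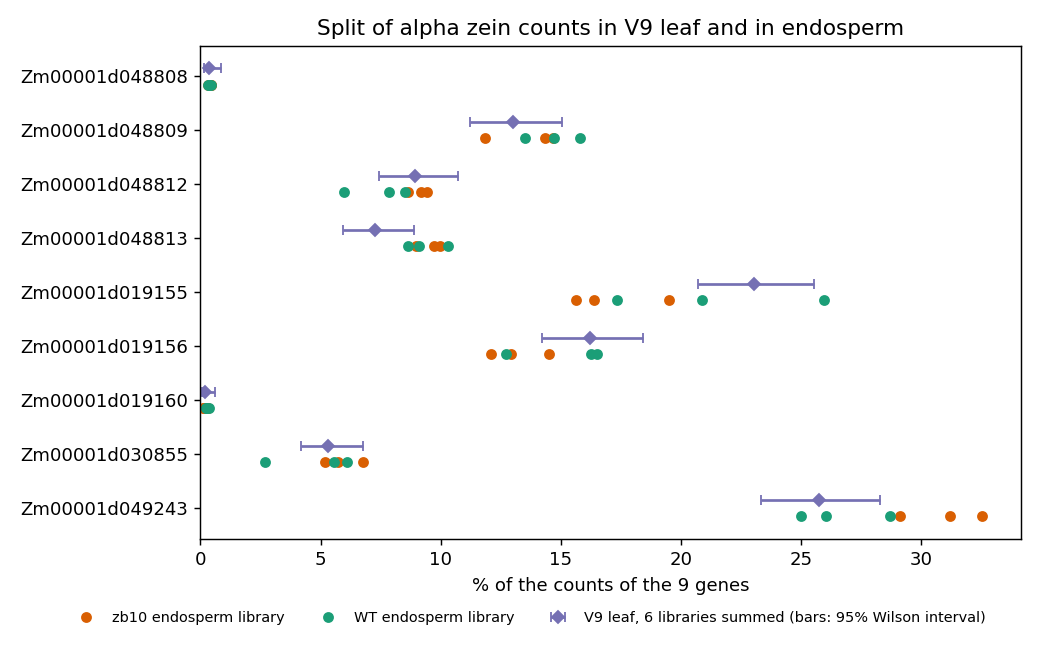
Percent of the summed alpha zein counts taken by each gene, in the 6 V9 leaf libraries together (purple diamonds, bars give the 95% Wilson interval) and in each zb10 (orange) and WT (green) endosperm library. The summed V9 value of Zm00001d048813, 7.26%, was the one that lay outside the endosperm values. The intervals cover counting error only, and 426 of the 1185 V9 counts came from 1 library.

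Within V9 leaf, 6 of the 9 genes passed the filter on low counts, and edgeR called 0 of them between zb10 and WT, where 0.0460% of 26105 genes were called. At an unadjusted p under 0.05 there were 0 of the 6, against 7.01% of all genes. The log2 fold changes of the 6 ran from -0.94 to -0.06 (adjusted p of 0.82 to 0.99), on levels of at most 2.06 CPM per library without TMM scaling. The intervals were wide: that of Zm00001d049243, the member with the most V9 counts, ran from -1.73 to 1.10 around a log2 fold change of -0.31 (95%, SE 0.61).

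IDs with numbers near those of the members gave a view of the surroundings, since numbers in this series of IDs tend to follow position. Within 10 numbers of a listed ID the table held 61 other IDs, of which 37 were tested in endosperm. edgeR and its adjusted p called 0 of these, 4 had an unadjusted p under 0.05, against 5.80% of all genes, and their median log2 fold change was 0.19. Among them 11 had a mean of at least 100 CPM. Those with the most counts were Zm00001d048816, at 9255, 9059 and 10858 CPM in zb10 against 5759, 9998 and 8022 CPM in WT, and Zm00001d048817, at 10781, 10485 and 12231 CPM in zb10 against 4035, 11236 and 8460 CPM in WT. Both had 0 counts at V4 and were lowest in WT replicate 1, and neither passed (log2 fold changes of 0.29 and 0.50; edgeR adjusted p = 0.91 and 0.90). Without WT replicate 1 the log2 fold change was 0.11 for Zm00001d048816 and 0.18 for Zm00001d048817, and without WT replicate 2 it was 0.50 and 0.84.

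Zm00001d048806, in the same run of numbers, varied most among these neighbours, 15.6-fold between libraries. It had 278, 115 and 274 CPM in zb10 and 17.9, 133 and 122.5 CPM in WT (log2 fold change 1.29, edgeR adjusted p = 0.86), and its log2 fold change was 0.80 without WT replicate 1 and 1.66 without WT replicate 2. By contrast Zm00001d049239, which is close to Zm00001d049243 in number, had 160609 counts at V4 and 176785 at V9. It was even in endosperm, at 278, 228 and 234 CPM in zb10 and 258, 257 and 248 CPM in WT. The files give no name for these IDs.

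Across all 21 libraries, the transcripts most like the members' mean profile of log2(CPM + 0.5) were Zm00001d049476, Zm00001d048851, Zm00001d048852, Zm00001d048847 and Zea_mays_newGene_17036. Their Pearson correlations were 0.9996 to 0.9998, a description that rests mainly on the difference between leaf and endosperm, on points that share libraries. The members' own correlations with the mean of the other members were 0.995 to 0.9998. All 5 had 0 counts at V4 and 86 to 156 at V9, and among endosperm libraries were lowest in WT replicate 1 and highest in zb10 replicate 3. These 5 were picked for likeness over the same libraries. Traits they share with the members follow in part from that choice and are no separate support. Zm00001d049476, the nearest in profile, had 4739, 5300 and 6954 CPM in zb10 endosperm and 3702, 5676 and 4347 CPM in WT endosperm (log2 fold change 0.31, SE 0.20, edgeR adjusted p = 0.91). Its log2 fold change was 0.18 without WT replicate 1, 0.49 without WT replicate 2 and 0.13 without zb10 replicate 3.

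Set beside the 100 other endosperm transcripts with the highest CPM (not corrected for length), the alpha zein genes did not stand out by calls. Of those 100, 0 passed edgeR's adjusted threshold between zb10 and WT and 19 had an unadjusted p under 0.05, against 5.80% of all genes; their median log2 fold change was -0.13, against 0.23 for the 9 members. WT replicate 1 was the lowest library for 16 of the 100. They held 39.7%, 38.9% and 41.1% of all counts in zb10 endosperm and 41.5%, 40.8% and 40.1% in WT endosperm.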

How the data were processed

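Raw counts per gene were used as deposited by the authors, in 1 table; how reads were aligned and counted, and on which genome build, is not given in the sources used here. Its columns call the mutant zb9 and the younger leaf 3L; each took the 1 labelled group left for it, and 0 columns were left without a sample. The libraries were SMARTer mRNA libraries, per the labels' protocols.

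The test was the quasi-likelihood test of edgeR 4.0.16 (R 4.3.3) after TMM scaling and filterByExpr (minimum count 10, minimum total 15), with a threshold of 0.05 on the Benjamini-Hochberg adjusted p over all genes tested. Fits were made separately for endosperm, for each tissue contrast, for V4 and for V9. A standard error is the absolute log2 fold change divided by the root of F. P-values set the difference between 2 groups against the spread between libraries of a group, which is estimated with information from all genes tested. No 2 replicates agreed within sampling noise. The counting precision within a library is set by its total, 28237880 to 123050963 counts. CPM are scaled to library size alone unless TMM is named; values per endosperm library and gene are TMM-scaled. Leaf-enriched genes were at least 16-fold higher in V9 leaf than in endosperm. The script was tested on simulated data. DESeq2 1.42.0 was an alternative.

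Named genes were all members, IDs within 10 numbers of a listed ID with at least 100 CPM, and the 5 genes of at least 100 CPM most like the members. Of the neighbours, those with the most counts, the most variable and an even one were picked for the text after their values were seen. So were those near Zm00001d048808 that were compared with it for overlap. A list of other zein and starch genes by name was not used, as 0 of 50142 IDs matched the maize B73 NAM reference table; the 100 most abundant other endosperm genes took its place. The members and lists were chosen with earlier results of these data known.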

Additional observations from a re-analysis of the deposited data

How the results depend on the processing

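The count of members called was 0 of 9 between zb10 and WT endosperm, 9 of 9 in both tissue comparisons and 0 at V9 in every alternative (at V4 the members had no counts, so none could be called): scaling by DESeq2 size factors, by library size alone or without the members, no filter on low counts, DESeq2, all 21 libraries in the fit, a replicate block, the leaf RNA covariate (endosperm only) and leaving out each library. With the replicate block, 0 members were called in endosperm; same-numbered endosperm libraries deviated with correlations of -0.04, -0.05 and 0.11 and share only a number, and own numbers correlated best in 2 of 6 cases. The share of counts taken by the members was 16.4% in zb10 and 14.1% in WT when the 50 most abundant other genes were left out of the total, by construction higher. Leaving out 1 library gave 9.80% to 10.7% in zb10 and 7.87% to 10.1% in WT.

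Signs of single genes in endosperm, none past the threshold, depended on the libraries. Over fits without 1 library, log2 fold changes ran from -0.11 to 0.38 for Zm00001d048809, -0.018 to 0.52 for Zm00001d048813, -0.14 to 0.19 for Zm00001d019156, -0.25 to 0.11 for Zm00001d019155 and -0.84 to 0.27 for Zm00001d019160. Among other IDs they ran from -0.075 to 0.24 for Zm00001d048851, -0.18 to 0.071 for Zm00001d048852, -0.021 to 0.39 for Zm00001d048847, -0.33 to 0.36 for Zea_mays_newGene_17036, -0.43 to 0.24 for Zm00001d019162, -0.14 to 0.011 for Zm00001d049239 and -0.076 to 0.36 for Zm00001d048802. With the leaf RNA covariate Zm00001d048809 was at -0.067, Zm00001d019156 at -0.028, Zm00001d048851 at -0.079 and Zea_mays_newGene_17036 at -0.010; the cause was not tested. In V9 leaf the ranges without 1 library were -1.42 to 0.18 for Zm00001d048809, -1.59 to 0.64 for Zm00001d048812, -1.25 to 0.81 for Zm00001d019156 and -0.89 to 0.30 for Zm00001d049243; Zm00001d019156 was at 0.027 with library size alone and 0.050 with all 21 libraries.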
